A study of Xenopus laevis with 36 samples.

Results

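Hox cluster genes were followed in healing skin wounds of juvenile *Xenopus laevis*. The members are the rows of the count table whose names start with hox, a cluster letter from a to d and a paralogue number, and that had at least 10 counts over all 36 libraries. Of 54 such rows considered among 42257 named rows, 30 were members: 9 of HoxA, 5 of HoxB, 6 of HoxC and 10 of HoxD. Just inside the minimum was *hoxa11.S* with 28 counts over all libraries, and just outside were *hoxc11.S* and *hoxd13.S* with 8 counts each.

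The frogs were recently metamorphosed animals labelled WT, with an intact dorsal muscle layer under a biopsy punch wound of epidermis and dermis. At 3 days post wounding (dpw) they were injected subcutaneously near the wound with recombinant CSF1 (rCSF1), recombinant IL34 (rIL34) or rctrl, and RNA was taken from the wound later. CSF1 and IL34 are growth factors of macrophages that share the CSF1 receptor, and rctrl is the material recovered in the same way from insect cells that carried an empty expression vector. There were 6 groups of 6 libraries, rCSF1, rIL34 and rctrl at 14 dpw and the same 3 treatments at 7 dpw, and no unwounded skin was analysed here. The labels do not say whether libraries of a group came from separate animals, so p-values measure the spread between these libraries.

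Hox genes encode homeodomain transcription factors that lie side by side in clusters. Their order along the chromosome follows the order in which they are expressed along the head to tail axis of the embryo, with low paralogue numbers toward the head. In human skin, fibroblasts of the adult still carry a Hox pattern that matches the body site they came from, and in mammals HOXC13 is needed for hair and nail keratins. *X. laevis* is an allotetraploid frog, so most genes have a copy in the L and a copy in the S subgenome, called homoeologues.

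Hox genes took few of the reads. The libraries held 22435798 to 34868292 counts (median 29370148), of which 751 to 3946 (median 2159) fell on Hox members, or 22.8 to 126 CPM (counts scaled to a common library total), with a median of 67.5 CPM. Tests were run on the 28225 genes with 0.5 CPM or more in 10 or more libraries. Of the 30 members, 12 passed, and they are *hoxa2*, *hoxa3*, *hoxb7*, *hoxc13* and *hoxd3*, each as L and S, with *hoxd4.L* and *hoxd8.L*. The other 18 had 28 to 300 counts in all and are described near the end. Expression is given below as TMM-normalized CPM, and a gene is said to have risen or fallen when edgeR's quasi-likelihood test gave an adjusted p under 0.05 over all 28225 genes.

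A Hox row without counts does not show a silent gene in this table. There were 19 such rows, from *hoxa5.L* to *hoxd11.L*, and all 19 lie within the span of another gene model in the Xenopus_laevis_v10.1 annotation, whereas none of the 30 members and none of the 5 rows with 1 to 9 counts do. Over all protein-coding rows, 1180 of 1350 rows without counts (87.4%) and 31 of 31929 rows with counts (0.0971%) lie within another gene. The long models themselves were counted. *hoxa3.L* spans 42003 bases of chromosome 6L (43390637 to 43432639) and holds *hoxa5.L*, and *hoxa3.S* spans 47524 bases of chromosome 6S (34621819 to 34669342) and holds *hoxa5.S* and *hoxa7.S*. The values of both *hoxa3* rows are therefore values of long models whose spans take in other Hox genes. Whether reads of those inner genes are among them was not tested. The spans of *hoxd3.L* (chromosome 9_10L, 78486585 to 78508464) and *hoxd4.L* (78501485 to 78525734) overlap, so these neighbours may not be independent measures. The span of *hoxd3.S* overlaps that of another model, LOC108703007, and both *hoxa3* spans overlap further gene models besides the Hox genes named. Whether these overlaps affect the counts was not tested. Levels are not compared between genes, because lengths of the counted exons were not used here.

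At 7 dpw, the tested HoxD members were lower after rCSF1 than after rctrl. All 4 tested HoxD members fell, where 14.1% of all tested genes were called lower, and their log2 fold changes lay between -1.73 and -1.41 with a median of -1.55, beside a median of -0.03 over all tested genes. No member was called higher, where 20.4% of all genes were. In edgeR 1 member, *hoxa3.S*, was higher at an unadjusted p under 0.05, and DESeq2 and voom also called 0 members higher and the same number of 4 lower.

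*hoxd3.S* is an anterior HoxD gene, of the paralogue group that in mouse takes part in patterning the neck vertebrae. It lies on chromosome 9_10S from 68844052 to 68881807. Its lowest, median and highest levels were 0.213, 2.31 and 3.60 CPM in rCSF1-treated wounds, against 4.45, 6.34 and 10.8 CPM in rctrl wounds. All 6 rCSF1 libraries were below all 6 rctrl libraries. The difference was -1.73 on the log2 scale (standard error 0.37, adjusted p = 5.1e-04). Its homoeologue *hoxd3.L* had 0.163, 1.76 and 2.55 CPM in rCSF1-treated wounds, against 2.80, 4.26 and 6.58 CPM in rctrl wounds. These groups did not overlap either, and *hoxd3.L* fell by 1.57 on the log2 scale (standard error 0.41, adjusted p = 0.0032). *hoxd3.L* did not pass when the model held these 2 groups only (adjusted p = 0.058).

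*hoxd4.L*, the next gene toward the posterior end of the cluster, had 0.384, 2.07 and 3.52 CPM in rCSF1-treated wounds, against 3.48, 6.37 and 8.31 CPM in rctrl wounds. The highest rCSF1 library lay just above the lowest rctrl library, and the others were apart. It fell by 1.53 on the log2 scale (standard error 0.38, adjusted p = 0.0023). *hoxd8.L*, on chromosome 9_10L from 78527939 to 78531068, had 0.0853, 0.468 and 0.841 CPM in rCSF1-treated wounds, against 0.671, 1.36 and 1.51 CPM in rctrl wounds. Every rCSF1 library was below the rctrl median, though the groups overlapped. It fell by 1.41 on the log2 scale (standard error 0.41, adjusted p = 0.0072).

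**Figure D1:**
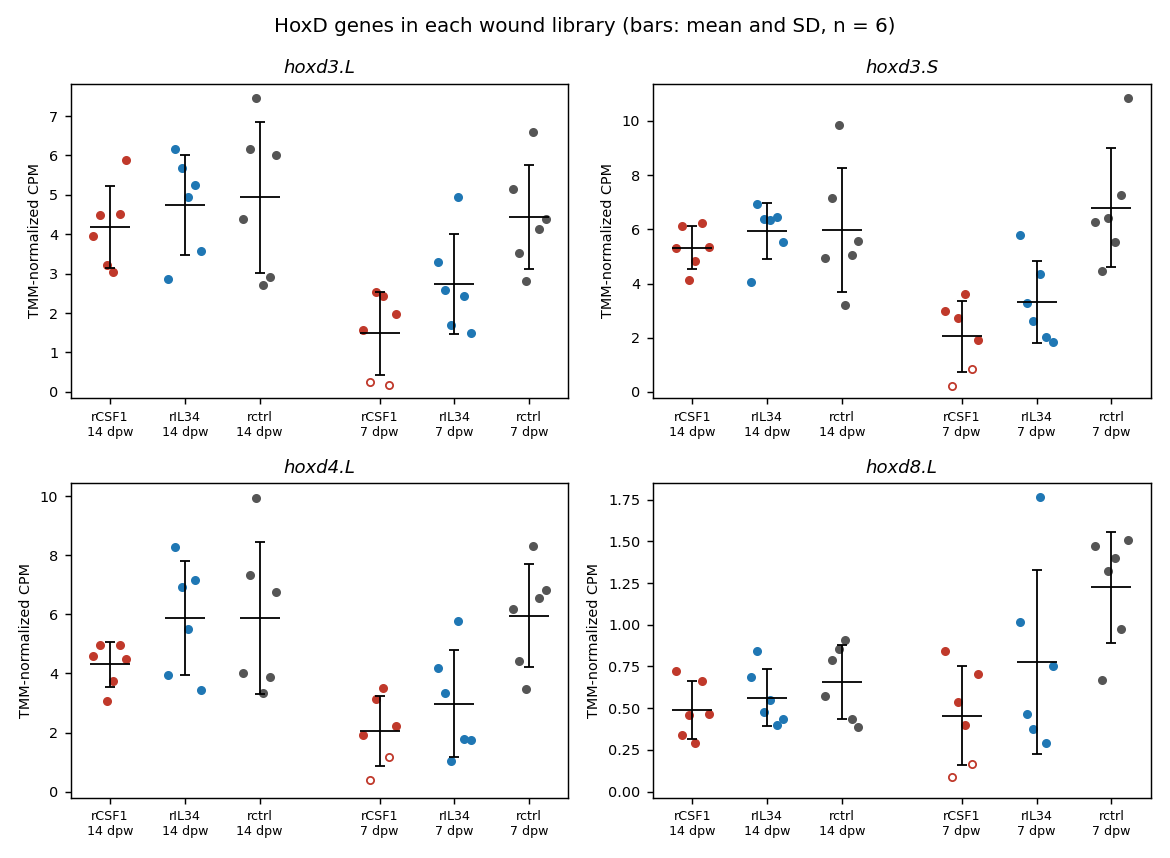
TMM-normalized CPM of the 4 tested HoxD genes in each library, by treatment and day, with the mean and SD of 6 libraries as bars. Open circles are rCSF1 replicates 2 and 5 at 7 dpw. For *hoxd3.L* and *hoxd3.S* all rCSF1 libraries at 7 dpw, up to 2.55 and 3.60 CPM, lie below all rctrl libraries, from 2.80 and 4.45 CPM.

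Replicates 2 and 5 of the rCSF1 group at 7 dpw stood apart. Summed over the 10 HoxD members they had 1.28 and 2.44 CPM, the other 4 rCSF1 libraries 7.17 to 10.5 CPM, and the rctrl libraries 13.7 to 25.0 CPM. The summed level of the fibroblast markers was also low in the pair, at 1934 and 2392 CPM, against 9576 to 14882 CPM in the other 4 and 7560 to 12048 CPM in rctrl wounds. Of 19 tested fibroblast markers 9 were lower and 0 higher in rCSF1-treated wounds, where 14.1% and 20.4% of all tested genes were called lower and higher. Their median log2 fold change was -0.82. *tcf21.L* was at 0 in every library and *prrx1* had no row, so this list rests on collagens, *dcn*, *lum*, *pdgfra* and the like. Leukocyte markers summed to 387 and 569 CPM in replicates 2 and 5, against 1108 to 1516 CPM in the other 4 and 887 to 1435 CPM in rctrl wounds, and epidermal markers to 11793 and 9086 CPM, against 4592 to 7705 CPM in the other 4 and 2900 to 7070 CPM in rctrl wounds, with 8 of 15 higher in the whole rCSF1 group. The part of these markers in the HoxD values was not tested. In bulk wound RNA, fewer cells of a type and less RNA per cell cannot be told apart.

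HoxD expression was lower also without these libraries. In the other 4 rCSF1 libraries the HoxD sum stayed below that of every rctrl library. With replicates 2 and 5 left out, 3 HoxD genes fell, with log2 fold changes of -1.30 for *hoxd3.S* (adjusted p = 0.0049), -1.09 for *hoxd3.L* (adjusted p = 0.024) and -1.18 for *hoxd4.L* (adjusted p = 0.035). *hoxd8.L* no longer passed (adjusted p = 0.095). Leaving out any 1 library kept the count at 4.

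HoxA, HoxB and HoxC members did not pass in the same comparison, although a long model over a pair of HoxB genes did (described near the end). The log2 fold changes of the 4 HoxA genes lay between -0.08 and 0.27 with a median of 0.24. *hoxa3.S* had 15.1, 16.5 and 21.0 CPM in rCSF1-treated wounds, against 13.3, 14.5 and 15.0 CPM in rctrl wounds. The groups did not overlap, but the difference of 0.25 (standard error 0.12, adjusted p = 0.098) did not pass. With *hoxd3.L* and *hoxd3.S* it made 3 members without overlap, where 6.44% of all genes had none. *hoxb7.L* and *hoxb7.S* were at -0.55 and -0.24, with standard errors of 0.50 and 0.45, and *hoxc13.L* and *hoxc13.S* at 0.09 and -0.20.

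After rIL34 the picture at 7 dpw was mixed: the tested HoxA, HoxB and HoxC members were above their rctrl levels and the tested HoxD members below. Of the 12 members 5 rose, where 15.8% of all tested genes were called higher, and 2 fell, where 11.2% were called lower. All 8 HoxA, HoxB and HoxC members had a positive log2 fold change and all 4 HoxD members a negative one, and 10 of the 12 had an unadjusted p under 0.05. The count of 7 was 4 without rIL34 replicate 6 and 4 without rctrl replicate 5. The rctrl libraries of this comparison are those the rCSF1 wounds were compared with.

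*hoxa2.L*, the gene that in mouse gives the second branchial arch its identity, had the smallest p. It had 3.61, 4.79 and 5.93 CPM in rIL34-treated wounds, against 1.29, 1.79 and 3.00 CPM in rctrl wounds. The groups did not overlap, and it rose by 1.25 on the log2 scale (standard error 0.22, adjusted p = 8.0e-05). *hoxa2.S* had 0.547, 1.48 and 1.95 CPM, against 0.350, 0.767 and 1.54 CPM in rctrl wounds, and overlapped (log2 fold change 0.71, standard error 0.30, adjusted p = 0.074). The copies of *hoxa2* thus differed in whether they passed, and the difference between them was not tested.

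The long *hoxa3* models rose by less. *hoxa3.S* had 16.3, 19.7 and 24.0 CPM in rIL34-treated wounds, against 13.3, 14.5 and 15.0 CPM in rctrl wounds, with no overlap (log2 fold change 0.47, standard error 0.12, adjusted p = 0.0037). *hoxa2.L* and *hoxa3.S* were the 2 members without overlap, where 10.8% of all genes had none. *hoxa3.L* had 10.4, 13.1 and 18.0 CPM, against 7.53, 9.38 and 13.5 CPM in rctrl wounds, and rose by 0.51 (standard error 0.18, adjusted p = 0.029). This call was lost in 6 of 12 fits that left out 1 library (adjusted p up to 0.0935).

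*hoxb7.L*, on chromosome 9_10L from 3554373 to 3562024, had 0.420, 1.19 and 2.22 CPM in rIL34-treated wounds, against 0.280, 0.413 and 0.956 CPM in rctrl wounds. It rose by 1.34 (standard error 0.47, adjusted p = 0.032), with overlap, and the call was lost in 6 of 12 fits without 1 library (adjusted p up to 0.094). *hoxb7.S* had 0.452, 1.33 and 2.82 CPM, against 0.353, 0.750 and 1.30 CPM in rctrl wounds (log2 fold change 1.04, standard error 0.44, adjusted p = 0.075). Both copies of this trunk gene leaned the same way, and neither was apart from rctrl wounds in every library.

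*hoxc13.S*, on chromosome 2S from 137890167 to 137894234, had 0.164, 1.42 and 2.16 CPM in rIL34-treated wounds, against 0.294, 0.373 and 0.919 CPM in rctrl wounds. It was higher in 5 of 6 rIL34 libraries than the rctrl median and lowest of all in the sixth, and rose by 1.45 (standard error 0.44, adjusted p = 0.013). *hoxc13.L* had 0.644, 0.955 and 2.16 CPM, against 0.163, 0.450 and 0.961 CPM in rctrl wounds (log2 fold change 1.04, standard error 0.46, adjusted p = 0.089).

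Within HoxD, *hoxd3.S* had 1.82, 2.94 and 5.78 CPM in rIL34-treated wounds, against 4.45, 6.34 and 10.8 CPM in rctrl wounds, and fell by 1.03 (standard error 0.35, adjusted p = 0.029). *hoxd4.L* had 1.04, 2.56 and 5.78 CPM, against 3.48, 6.37 and 8.31 CPM in rctrl wounds (log2 fold change -0.99, standard error 0.37, adjusted p = 0.045). Every rIL34 library was below the rctrl median for both genes, yet the groups overlapped and both calls were lost in some fits without 1 library, 4 of 12 for *hoxd3.S* (adjusted p up to 0.0895) and 8 of 12 for *hoxd4.L* (adjusted p up to 0.10). *hoxd3.L* at -0.69 (adjusted p = 0.20) and *hoxd8.L* at -0.64 (adjusted p = 0.23) did not pass.

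**Figure D2:**
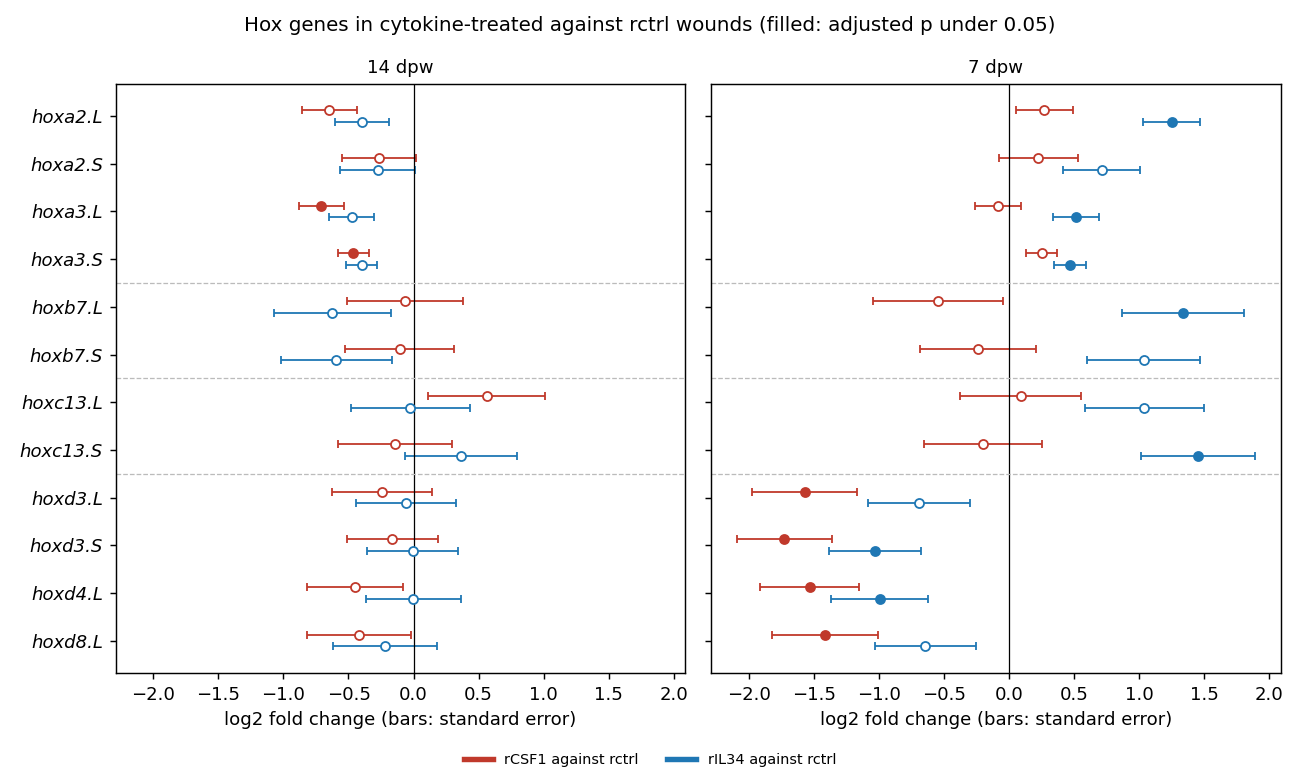
Log2 fold change of the 12 tested Hox genes in rCSF1-treated (red) and rIL34-treated (blue) against rctrl wounds at 14 dpw (left) and 7 dpw (right), with standard errors. Filled points have an adjusted p under 0.05 and dashed lines part the clusters. At 7 dpw the 4 HoxD genes lie between -1.73 and -1.41 after rCSF1, and the 4 HoxA genes between 0.47 and 1.25 after rIL34.

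Some markers of skin cell types moved in the same comparison, where 15.8% of all tested genes were called higher and 11.2% lower. Epidermal markers were higher after rIL34 for 12 of the 15 tested genes and lower for 0, and their sum was 6809 to 10534 CPM, against 2900 to 7070 CPM in rctrl wounds. The keratin genes *krt5*, *krt14*, *krt18* and *krt12* had no row. The list therefore rests on *tp63*, *cdh1*, *itga6*, the keratin gene *krt19* and junction genes such as the plakoglobin gene *jup.S* (log2 fold change 2.02, adjusted p = 2.7e-07). Among 19 fibroblast markers 2 were higher, *col1a1.L* and *col1a1.S*, and 0 lower, with a median log2 fold change of -0.04. The fibroblast sum was 9923 to 24414 CPM, against 7560 to 12048 CPM in rctrl wounds. Of 14 Schwann and neural markers 4 were higher and 1 lower, with sums of 195 to 374 CPM, against 137 to 177 CPM. Their part in the Hox values was not tested.

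Set against each other at 7 dpw, the cytokines differed in 1 direction in the 12 tested Hox members. Of the 18 members too low for the filter, 6 had a positive and 12 a negative log2 fold change in a fit without it. All 12 members had a negative log2 fold change in rCSF1-treated against rIL34-treated wounds, and 5 passed, where 8.05% of all genes were called lower. *hoxb7.L* had 0.0426, 0.278 and 0.720 CPM in rCSF1-treated wounds, against 0.420, 1.19 and 2.22 CPM in rIL34-treated wounds (log2 fold change -1.88, standard error 0.49, adjusted p = 0.0082). *hoxb7.S* had 0, 0.707 and 1.20 CPM, where the library without a count allows up to 0.128 CPM, against 0.452, 1.33 and 2.82 CPM in rIL34-treated wounds (log2 fold change -1.27, adjusted p = 0.043). *hoxc13.S* was at -1.65 (adjusted p = 0.011), *hoxa2.L* at -0.98 (adjusted p = 0.0026) and *hoxa3.L* at -0.60 (adjusted p = 0.019). The HoxD genes, lower than rctrl in both, differed by -0.88 to -0.54 and none passed in edgeR, where 1 of them, *hoxd3.L*, had an unadjusted p under 0.05. Without rCSF1 replicates 2 and 5 the count was 1, *hoxa2.L* at -0.88 (adjusted p = 0.029), and in a model of both cytokine groups only it was 0, with *hoxa2.L* at an adjusted p of 0.0997. It was 3 without rCSF1 replicate 2 and 3 without rIL34 replicate 6. The call of *hoxb7.S* was lost in 8 of 12 fits without 1 library (adjusted p up to 0.14).

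The balance of the HoxA and HoxD clusters shifted in both cytokine groups at 7 dpw. Summed over members, HoxA had 28.2, 29.4 and 33.9 CPM in rCSF1-treated wounds and 34.9, 38.8 and 49.4 CPM in rIL34-treated wounds, against 24.8, 26.5 and 32.2 CPM in rctrl wounds. HoxD had 1.28, 7.39 and 10.5 CPM in rCSF1-treated and 6.47, 8.33 and 18.5 CPM in rIL34-treated wounds, against 13.7, 19.9 and 25.0 CPM in rctrl wounds. The log2 ratio of the sums was 1.47 to 4.49 after rCSF1 and 0.97 to 2.89 after rIL34, against 0.0636 to 1.13 in rctrl wounds. Of the rIL34 libraries 1 lay within the rctrl range of this ratio, and all 6 rCSF1 libraries lay above it. Without the long *hoxa3* models the ratio was -1.58 to 1.40 after rCSF1 and -1.59 to 0.34 after rIL34, against -3.32 to -1.80 in rctrl wounds, and neither cytokine group overlapped with rctrl. These ratios add rows of unlike length and are given as a description.

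**Figure D3:**
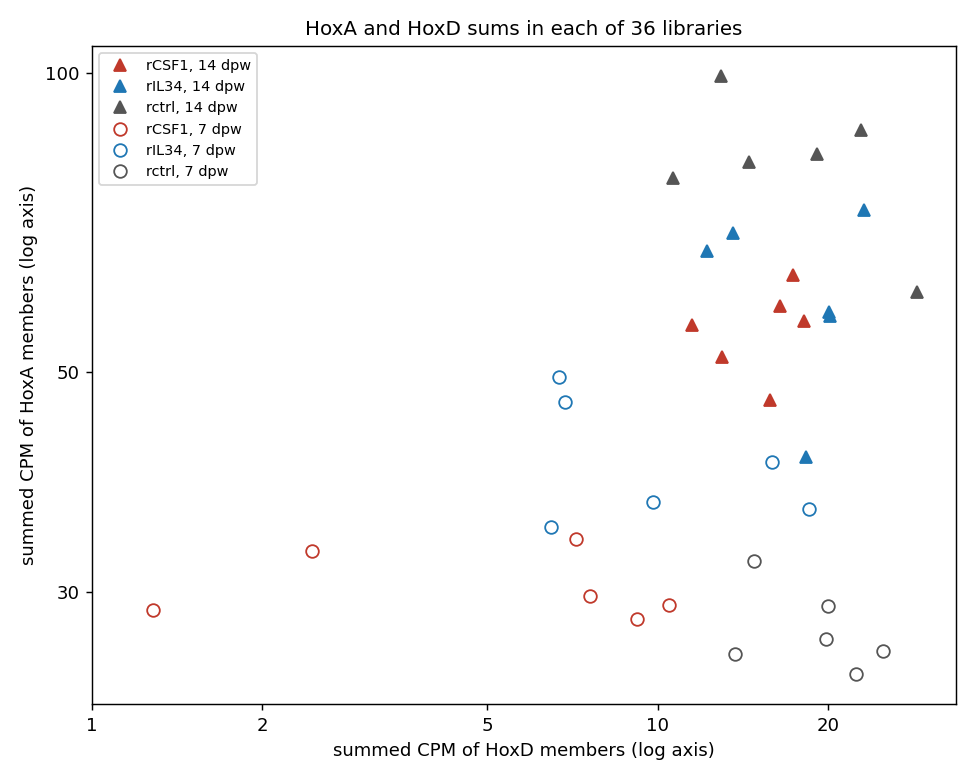
Summed CPM of the HoxA members against that of the HoxD members in each of 36 libraries, on log axes, coloured by treatment with triangles for 14 dpw and open circles for 7 dpw. The rctrl libraries at 7 dpw lie at the lower right, with HoxA sums of 24.8 to 32.2 CPM and HoxD sums of 13.7 to 25.0 CPM, and those at 14 dpw at the top, with HoxA sums of 60.2 to 99.3 CPM.

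Between 7 and 14 dpw the tested HoxA members rose in rctrl wounds, while no tested HoxD member passed. Of the 12 members 6 were higher at 14 dpw, where 22.9% of all tested genes were called higher: all 4 HoxA genes and both copies of *hoxb7*. The median log2 fold change was 1.58 for HoxA and -0.10 for HoxD, beside -0.01 over all tested genes. In 5 members the days did not overlap, where 32.1% of all genes had no overlap.

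*hoxa3.S* had 28.9, 40.4 and 47.0 CPM at 14 dpw, against 13.3, 14.5 and 15.0 CPM at 7 dpw, and rose by 1.44 on the log2 scale (standard error 0.12, adjusted p = 5.1e-11). *hoxa3.L* had 24.6, 32.1 and 41.9 CPM at 14 dpw, against 7.53, 9.38 and 13.5 CPM at 7 dpw (1.76, standard error 0.18, adjusted p = 1.9e-09). In both, every library at 14 dpw was above every library at 7 dpw. *hoxa2.L* had 4.50, 6.33 and 6.64 CPM at 14 dpw, against 1.29, 1.79 and 3.00 CPM at 7 dpw (1.63, standard error 0.22, adjusted p = 2.4e-07). *hoxa2.S* rose by 1.52 (adjusted p = 8.1e-05), and in neither copy of *hoxa2* did the days overlap.

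The *hoxb7* copies rose with HoxA. *hoxb7.L* had 1.10, 1.31 and 1.86 CPM at 14 dpw, against 0.280, 0.413 and 0.956 CPM at 7 dpw (1.42, standard error 0.47, adjusted p = 0.012), without overlap. *hoxb7.S* had 1.08, 1.79 and 2.13 CPM at 14 dpw, against 0.353, 0.750 and 1.30 CPM at 7 dpw (standard error 0.44 on the log2 scale, adjusted p = 0.027), and its call was lost in 4 of 12 fits without 1 library (adjusted p up to 0.066). *hoxd3.L* at 0.16, *hoxd3.S* at -0.19 and *hoxd4.L* at -0.02 had adjusted p-values of 0.68 to 0.97. *hoxd8.L* was at -0.89 (adjusted p = 0.057), with 0.388, 0.681 and 0.907 CPM at 14 dpw, against 0.671, 1.36 and 1.51 CPM at 7 dpw. No HoxD member passed in edgeR, 1 had an unadjusted p under 0.05, and DESeq2 and voom each called 1 member lower.

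**Figure D4:**
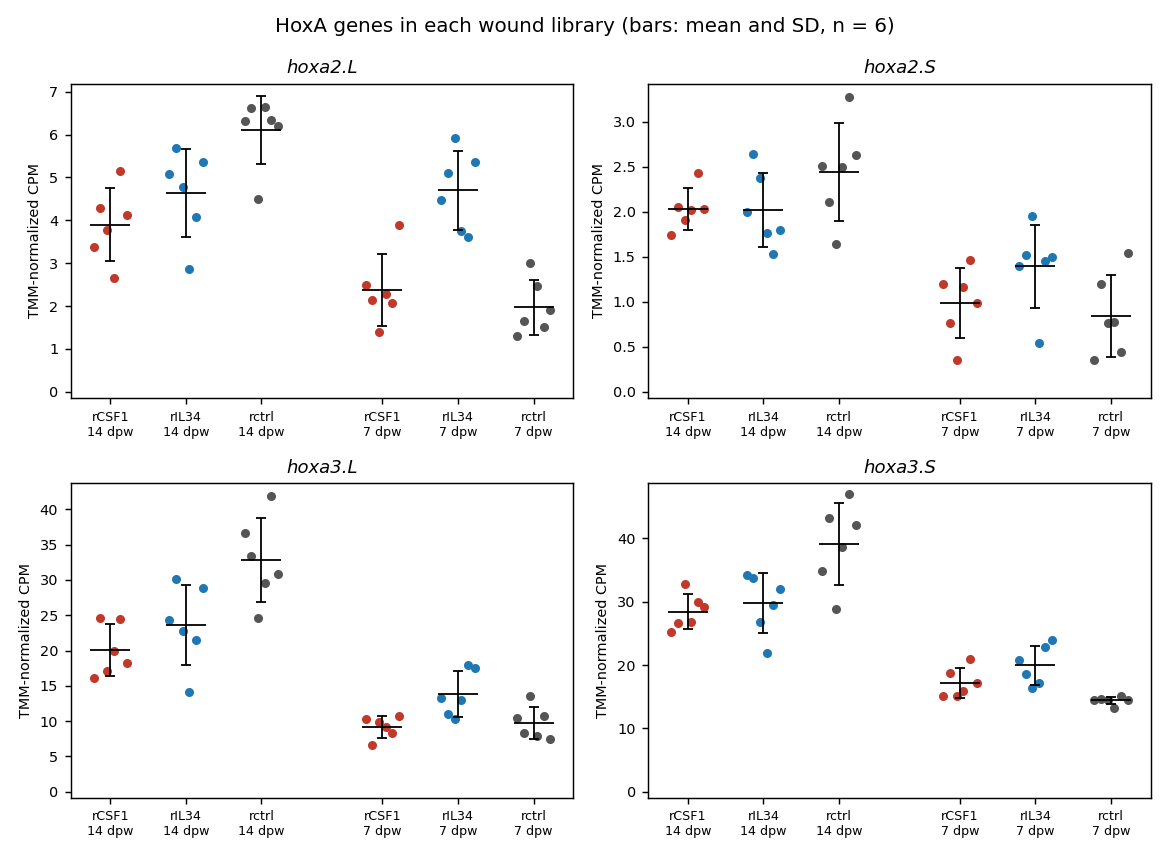
TMM-normalized CPM of the 4 tested HoxA genes in each library, by treatment and day, with the mean and SD of 6 libraries as bars. For *hoxa3.S* the rctrl libraries had 28.9 to 47.0 CPM at 14 dpw and 13.3 to 15.0 CPM at 7 dpw, with the cytokine groups between these ranges or overlapping them.

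Levels of skin cell type markers differed between the days as well. In rctrl wounds 22.9% of all tested genes were called higher at 14 dpw. Of 15 epidermal markers 12 were higher and 1 lower at 14 dpw in rctrl wounds, with sums of 5849 to 10299 CPM, against 2900 to 7070 CPM at 7 dpw. Of 17 leukocyte markers 15 were lower and 1 higher, with sums of 237 to 368 CPM, against 887 to 1435 CPM. Their median log2 fold change was -2.16, beside -0.01 over all tested genes. Fibroblast markers had 1 of 19 higher and 1 lower, and 7 of 14 Schwann and neural markers were higher. The part of these markers in the HoxA values was not tested.

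After rCSF1 the change with time also took in HoxD. Of the 12 members 9 were higher at 14 than at 7 dpw, where 23.9% of all genes were called higher, and in 5 the days did not overlap, where 20.7% of all genes had no overlap. *hoxd3.L* had 3.03, 4.22 and 5.87 CPM at 14 dpw, against 0.163, 1.76 and 2.55 CPM at 7 dpw (log2 fold change 1.49, standard error 0.40, adjusted p = 0.0026). *hoxd3.S* had 4.11, 5.32 and 6.22 CPM at 14 dpw, against 0.213, 2.31 and 3.60 CPM at 7 dpw (1.37, standard error 0.36, adjusted p = 0.0020). For both, all libraries at 14 dpw were above all at 7 dpw. *hoxd4.L* was at 1.06 (adjusted p = 0.018), and at 0.73 (adjusted p = 0.11) without replicates 2 and 5 of 7 dpw. The other members called were *hoxb7.L* at 1.91 (adjusted p = 0.0015), *hoxb7.S* at 1.29 (adjusted p = 0.014), *hoxa3.L* at 1.13 (adjusted p = 4.5e-06), *hoxa2.S* at 1.03 (adjusted p = 0.0041), *hoxa3.S* at 0.72 (adjusted p = 8.6e-06) and *hoxa2.L* at 0.71 (adjusted p = 0.0060). *hoxb7.S* was also lost without replicates 2 and 5, at 0.87 (adjusted p = 0.055), which left 7 members called. Without replicates 1, 2 and 6 of 14 dpw the same 2 calls were lost, with *hoxd4.L* at 0.94 (adjusted p = 0.10) and *hoxb7.S* at 1.24 (adjusted p = 0.060). Skeletal muscle markers summed to 92.1 to 19912 CPM at 14 dpw, against 18.2 to 34.2 CPM at 7 dpw, with 14 of 14 higher. Leukocyte markers summed to 359 to 491 CPM at 14 dpw, against 387 to 1516 CPM at 7 dpw, with 9 of 17 lower and 2 higher. Their median log2 fold change was -0.99, beside -0.06 over all tested genes. Of the Schwann and neural markers 8 of 14 were higher, and of the endothelial markers 7 of 14. Fibroblast markers summed to 12543 to 23590 CPM at 14 dpw, against 1934 to 14882 CPM at 7 dpw, with 10 of 19 higher. The part of these markers in the Hox values was not tested.

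After rIL34 fewer members differed between the days. There were 4 called higher at 14 dpw, where 20.4% of all genes were called higher. *hoxa3.L* had 14.2, 23.5 and 30.1 CPM at 14 dpw, against 10.4, 13.1 and 18.0 CPM at 7 dpw (log2 fold change 0.77, standard error 0.18, adjusted p = 6.0e-04). *hoxa3.S* was at 0.57 (adjusted p = 2.0e-04), *hoxd4.L* at 0.97 (adjusted p = 0.031) and *hoxd3.S* at 0.84 (adjusted p = 0.0498). *hoxa2.L* was level, with 2.86, 4.92 and 5.68 CPM at 14 dpw, against 3.61, 4.79 and 5.93 CPM at 7 dpw (-0.02, standard error 0.21, adjusted p = 0.95). The count of 4 was 2 without rIL34 replicate 3, 5 or 6 of 7 dpw or replicate 2, 3 or 5 of 14 dpw, and in each of these 6 fits both HoxD calls were lost. In all, the call of *hoxd3.S* was lost in 9 of 12 fits without 1 library (adjusted p up to 0.11).

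**Figure D5:**
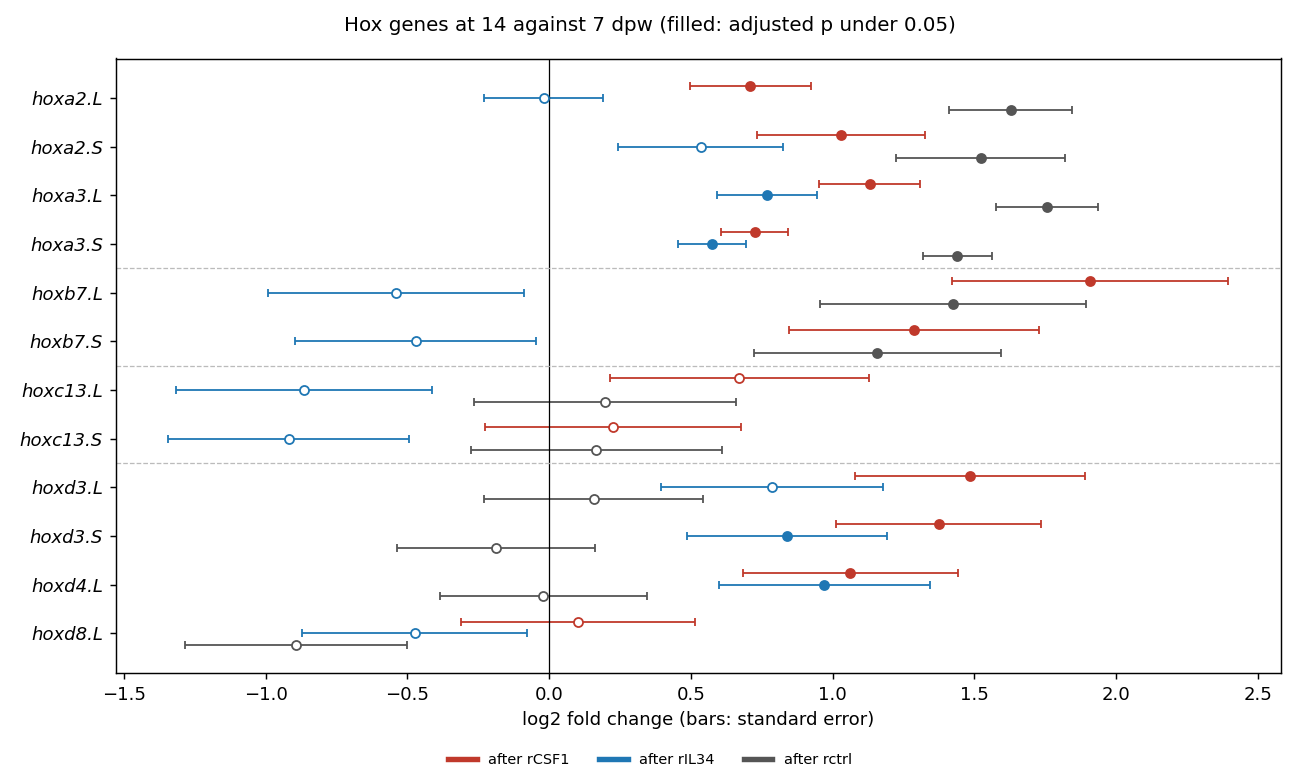
Log2 fold change of the 12 tested Hox genes at 14 against 7 dpw after rCSF1 (red), rIL34 (blue) and rctrl (grey), with standard errors. Filled points have an adjusted p under 0.05 and dashed lines part the clusters. After rctrl all 4 HoxA genes are filled, between 1.44 and 1.76, and no HoxD gene is, while after rCSF1 3 HoxD genes are filled, between 1.06 and 1.49.

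At 14 dpw few members differed between treatments. In rCSF1-treated wounds *hoxa3.L* had 16.1, 19.1 and 24.6 CPM, against 24.6, 32.1 and 41.9 CPM in rctrl wounds, and fell by 0.71 (standard error 0.18, adjusted p = 0.036). *hoxa3.S* had 25.1, 28.0 and 32.7 CPM, against 28.9, 40.4 and 47.0 CPM in rctrl wounds, and fell by 0.46 (standard error 0.12, adjusted p = 0.047). These were the 2 members called, where 0.0957% of all genes were called lower, and every rCSF1 library was below the rctrl median for both. All 4 HoxA members had a negative log2 fold change, with a median of -0.55, and *hoxa2.L* at -0.65 (adjusted p = 0.17) did not pass. Both calls sit near the threshold: the count of 2 was 0 or 1 in 11 of 12 fits that left out 1 library and 2 only without rctrl replicate 3, and it was 0 without rCSF1 replicates 1, 2 and 6, where the log2 fold changes were -0.68 for *hoxa3.L* and -0.39 for *hoxa3.S*. Skeletal muscle markers summed to 92.1 to 19912 CPM in these rCSF1 libraries, against 35.7 to 79.8 CPM in rctrl wounds, with 12 of 14 higher, and were highest in replicates 1, 2 and 6, at 2100 CPM or more. The median log2 fold change of these markers was 8.0, beside 0.01 over all tested genes. Their part in the *hoxa3* values was not tested.

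In rIL34-treated wounds at 14 dpw no member passed edgeR's test, where 0.0496% of all genes were called in either direction. At an unadjusted p under 0.05 there were 2, *hoxa3.S* at -0.40 (adjusted p = 0.21) and *hoxa3.L* at -0.47 (adjusted p = 0.38), and DESeq2 and voom called 0. The 4 HoxA genes were all negative here too, with a median of -0.40, and the same rctrl libraries enter both cytokine comparisons. In rCSF1-treated against rIL34-treated wounds at 14 dpw no member passed, where 1.24% of all genes were called, 0 had an unadjusted p under 0.05, and DESeq2 and voom called 0.

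Whether a cytokine's effect differed between the days was tested as the effect at 14 dpw less that at 7 dpw. For rIL34 the difference was negative in all 8 tested HoxA, HoxB and HoxC members and passed in 4, where 10.9% of all genes were called lower. *hoxb7.L* was at -1.96 (standard error 0.65, adjusted p = 0.032). *hoxa2.L* was at -1.65 (standard error 0.30, adjusted p = 3.3e-04), *hoxa3.L* at -0.99 (adjusted p = 0.0055) and *hoxa3.S* at -0.87 (adjusted p = 6.1e-04). The 3 HoxA calls held in all 24 fits that left out 1 library, while that of *hoxb7.L* was lost in 7 of them (adjusted p up to 0.066). The 4 HoxD genes were positive, between 0.42 and 1.03, and none passed. A model over 5 HoxB rows, LOC108702522 (described near the end), went against the tested HoxB members, at 1.27 (standard error 0.33, adjusted p = 0.0062). For all 4 members called the rIL34 effect was negative at 14 dpw and positive at 7 dpw. The same 12 rctrl libraries enter these differences and the change with time after rctrl.

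For rCSF1 2 HoxA members had a lower effect at 14 than at 7 dpw, where 10.5% of all genes were called lower: *hoxa2.L* at -0.92 (standard error 0.30, adjusted p = 0.037) and *hoxa3.S* at -0.72 (standard error 0.17, adjusted p = 0.0069). *hoxd3.S* was the 1 tested member with a higher one, at 1.56 (standard error 0.50, adjusted p = 0.033), where 5.51% of all genes were called higher. All 4 HoxD genes were positive, between 1.00 and 1.56. Without rCSF1 replicates 2 and 5 of 7 dpw the count of 3 was 0, with *hoxd3.S* at 1.15 (adjusted p = 0.10) and *hoxa3.S* at -0.55 (adjusted p = 0.071), and it was also 0 without rCSF1 replicates 1, 2 and 6 of 14 dpw, with *hoxd3.S* at 1.49 (adjusted p = 0.13) and *hoxa3.S* at -0.64 (adjusted p = 0.068). It was 1 without rCSF1 replicate 5 or rctrl replicate 6 of 7 dpw, or without rctrl replicate 1 or 4 of 14 dpw. The call of *hoxa2.L* was lost in 13 of 24 fits without 1 library (adjusted p up to 0.085).

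The homoeologues of a gene had the same sign in both cytokine comparisons at 7 dpw except *hoxa3* and *hoxc13* after rCSF1. In rCSF1-treated against rctrl wounds at 7 dpw *hoxd3.L* and *hoxd3.S* were at -1.57 and -1.73, with standard errors of 0.41 and 0.37. In rIL34-treated against rctrl wounds at 7 dpw the L and S copies were at 1.25 and 0.71 for *hoxa2*, 0.51 and 0.47 for *hoxa3*, 1.34 and 1.04 for *hoxb7* and 1.04 and 1.45 for *hoxc13*. The copies differed by less than the sum of their standard errors, except in *hoxa2* after rIL34 and *hoxa3* after rCSF1 (-0.08 and 0.25), where they differed by slightly more. Reads that match both copies may be shared between them, so the copies are not fully independent.

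The 18 members too low for the filter were tested in a fit without it. In rCSF1-treated against rctrl wounds at 7 dpw 1 of them was called lower, where 10.3% of all genes in that fit were called lower. This was *hoxd10.S*, a posterior HoxD gene, with 0 counts in all 6 rCSF1 libraries, which allows 0.0202 CPM over the group, against 13 counts or 0.0798 CPM over the rctrl group and 22 counts or 0.124 CPM over the rIL34 group. Against rctrl the adjusted p was 0.016, and the rctrl level was 3.96 times the level allowed after rCSF1. It was also called lower than in rIL34-treated wounds (adjusted p = 0.014), whose level was 6.13 times the level allowed. There it was the 1 low member called, where 4.75% of all genes were called lower. Counting error in the 13 and 22 counts is not in these ratios. Single libraries were at 0 there too, with lowest, median and highest counts of 0, 1.5 and 5 in rctrl and 0, 3.5 and 7 in rIL34-treated wounds. At 14 against 7 dpw after rCSF1 4 low members were called higher, where 20.2% of all genes were. *hoxd10.S* had 20 counts over the 14 dpw group, against 0 at 7 dpw (adjusted p = 0.0046). *hoxd9.S* had 2, 11.5 and 17 counts at 14 dpw, against 0, 1 and 4 at 7 dpw (adjusted p = 0.015), and *hoxd8.S* had 4, 11.5 and 26 counts at 14 dpw, against 1, 2 and 8 at 7 dpw (adjusted p = 0.031). *hoxb9.L* rested on few reads, with 0, 2 and 19 counts at 14 dpw, against 0, 0 and 2 at 7 dpw (adjusted p = 0.032). The 19 counts were in rCSF1 replicate 6 of 14 dpw, where skeletal muscle markers summed to 19912 CPM. That library also had the group's highest counts of *hoxa9.L* (28, median 5), *hoxa10.S* (25, median 0) and *hoxc3.L* (36, median 5). Low members were not refitted without it, and the part of the muscle markers in their values was not tested. The rCSF1 effect at 14 less that at 7 dpw was higher for 1 low member, *hoxd8.S* at 2.95 (adjusted p = 0.039), where 3.7% of all genes were called higher. After rIL34 at 7 dpw 8 of the 18 had a positive and 10 a negative log2 fold change, and *hoxd9.S* at 0.76, *hoxd1.L* at 0.67 and *hoxd10.S* at 0.53 (adjusted p = 0.50 to 0.73) lay on the other side of 0 from the tested HoxD members. The remaining low members had no call in any comparison between treatments on 1 day.

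Models that hold Hox genes without counts gave values of their own, and 5 models other than *hoxa3* were tested. LOC108708637, on chromosome 2L from 154149775 to 154246822, holds *hoxc5.L*, *hoxc6.L* and *hoxc9.L* and had 31998 counts. It had 36.2, 45.4 and 60.5 CPM at 14 dpw in rctrl wounds, against 12.8, 18.0 and 30.2 CPM at 7 dpw, without overlap (log2 fold change 1.28, standard error 0.28, adjusted p = 3.2e-04). LOC108708637 rose between the days after rIL34 too (1.21, adjusted p = 7.1e-04), with overlap. After rCSF1 it was at 0.56 (adjusted p = 0.086). LOC121397930 holds *hoxd9.L*, *hoxd10.L* and *hoxd11.L* on chromosome 9_10L from 78534718 to 78561397. It had 0, 0.180 and 0.447 CPM in rCSF1-treated and 0.124, 0.568 and 1.49 CPM in rIL34-treated wounds at 7 dpw, against 0.0707, 0.250 and 0.921 CPM in rctrl wounds. The rCSF1 library without a count allows up to 0.122 CPM. It was lower in rCSF1-treated than in rIL34-treated wounds (-1.82, standard error 0.56, adjusted p = 0.023), and not by the test than in rctrl wounds (-1.07, standard error 0.58, adjusted p = 0.15). After rIL34 it was at 0.75 against rctrl (adjusted p = 0.29). In rctrl wounds it had 0.890, 1.19 and 1.32 CPM at 14 dpw, against 0.0707, 0.250 and 0.921 CPM at 7 dpw, and rose by 1.49 (standard error 0.51, adjusted p = 0.016), which no tested HoxD member did. It also rose after rCSF1 (2.16, adjusted p = 0.0016). LOC108702522, a long noncoding RNA model over 5 HoxB rows from *hoxb1.S* to *hoxb6.S*, had 0.486, 0.910 and 1.29 CPM in rIL34-treated wounds at 7 dpw, against 1.45, 1.80 and 2.16 CPM in rctrl wounds, and fell by 1.00 (standard error 0.23, adjusted p = 0.0018), without overlap. The rIL34 effect on LOC108702522 was higher at 14 than at 7 dpw (1.27, adjusted p = 0.0062), and none of the other tested models named LOC passed that test. LOC108702522 rose between 7 and 14 dpw after rIL34 (1.21, adjusted p = 9.2e-05, without overlap) and rCSF1 (0.71, adjusted p = 0.011). After rctrl it was at -0.07 (adjusted p = 0.84). LOC108700804, over *hoxb5.L* and *hoxb6.L*, had 0.597, 1.62 and 2.36 CPM in rCSF1-treated wounds at 7 dpw, against 1.98, 2.67 and 3.70 CPM in rctrl wounds, and fell by 0.80 (standard error 0.30, adjusted p = 0.038), with overlap. It was higher at 14 than at 7 dpw after rCSF1 (adjusted p = 1.1e-04, without overlap), rIL34 (1.07, adjusted p = 0.0035) and rctrl (0.72, adjusted p = 0.041). LOC108709892, over *hoxc6.S*, *hoxc8.S* and *hoxc9.S*, was called in the change with time after rCSF1 (1.08, adjusted p = 0.035). After rIL34 at 7 dpw it was at -0.29 against rctrl (adjusted p = 0.65). In that comparison LOC108708637 was at -0.16 (adjusted p = 0.70) and LOC108700804 at -0.40 (adjusted p = 0.33). Whether reads over a gene inside such a model were counted for the model or left out was not tested. The values are therefore values of the model, and which gene the reads came from cannot be told.

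Genes that act with or upstream of Hox genes were read from lists of known regulators. The TALE homeodomain proteins bind DNA together with Hox proteins, and 3 of the 13 tested genes were above and 3 below rctrl at 7 dpw after rIL34, where 15.8% and 11.2% of all genes were called higher and lower. *pbx2.L* rose by 0.53 (adjusted p = 2.7e-04) and *pbx2.S* by 0.46 (adjusted p = 0.0011), and *pknox2.L* fell by 0.95 (adjusted p = 0.0054). Polycomb proteins keep Hox genes silent, and of 37 tested genes 7 were higher and 5 lower in the same comparison, near those shares, among them *cbx2.L* at 0.64 (adjusted p = 5.6e-05) and *cbx8.L* at -0.70 (adjusted p = 8.6e-04). Trithorax proteins and H3K27 demethylases keep them active or lift that silence, and of 17 tested genes 8 were higher and 1 lower, both in rIL34-treated and in rCSF1-treated wounds. Over all genes 20.4% were called higher and 14.1% lower after rCSF1. In that comparison 2 of the TALE genes were higher and 4 lower, and 5 of the Polycomb genes were higher and 4 lower. The demethylase gene *kdm6b.L* was at 0.64 (adjusted p = 0.0072) after rIL34 and 0.83 (adjusted p = 5.9e-04) after rCSF1. Its list's median log2 fold change was 0.30 after rIL34 and 0.38 after rCSF1.

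Retinoic acid sets Hox expression in the embryo. Of 28 tested genes of its pathway, 5 were higher and 0 lower after rIL34, and 9 were higher and 2 lower after rCSF1, both against rctrl at 7 dpw. Over all genes 15.8% were called higher after rIL34, and 20.4% higher and 14.1% lower after rCSF1. The binding protein gene *crabp2.L* was at 0.81 in both (adjusted p = 5.8e-04 after rIL34 and 4.1e-04 after rCSF1), and the receptor gene *rxrb.L* was at 0.47 (adjusted p = 0.0067) and 0.59 (adjusted p = 7.6e-04). Of 14 rows of Hox neighbours and ParaHox genes 1 was tested, *cdx4.S*, at -1.04 (adjusted p = 0.096) after rIL34 and 0.38 (adjusted p = 0.54) after rCSF1 against rctrl at 7 dpw. In rCSF1-treated against rIL34-treated wounds at 7 dpw it was higher (1.42, adjusted p = 0.034). At 14 against 7 dpw it was lower after rCSF1 (-3.75, adjusted p = 1.0e-06), rIL34 (-2.48, adjusted p = 3.2e-04) and rctrl (-2.94, adjusted p = 1.7e-05).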

How the data were processed

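RNA of 36 wound samples, labelled polyA and prepared with rRNA depletion, was sequenced as 6 libraries in each of 6 groups of treatment and day. The deposited table holds raw counts per gene, which the authors made with featureCounts 2.1.1 from reads aligned with minimap2 2.29 and sorted with SAMtools 1.16.1, per the submitters' processing notes, on Xenopus_laevis_v10.1. No strand option is named. Of its rows, 1 is blank and 417 are named uc, NA or na; they held 1.08% of all counts and were left out, which left 42257 rows, 38754 of them matched to RefSeq symbols.

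Totals per library were 22435798 to 34868292. Genes with at least 0.5 CPM in 10 or more libraries were tested with edgeR 4.0.16 in R 4.3.3 (TMM, 1 quasi-likelihood model of 6 groups over all libraries, two-sided), with Benjamini-Hochberg adjustment over all 28225 genes and a threshold of 0.05. Alternatives were DESeq2 1.42.0, limma 3.58.1 voom with quality weights, RLE size factors, no filter or one at 5 CPM, models of the compared groups only, a replicate block, summed L and S copies, and leaving out single libraries or those that stood apart. The scripts were tested on simulated data first. Intervals and floors cover counting error only, and a floor is 3 counts.

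The members with the highest level in a cluster, the up to 6 called members with the largest rise and fall in a comparison, their homoeologues, and from every other list up to 3 genes with the lowest p after rIL34 at 7 dpw plus the one with the highest level could be named; other members were added for completeness after their values were seen. Members and lists were chosen with earlier results of these data known. 1 gene that meets the name rule is not reported here, though its rows stayed in every model. Lengths of counted exons were not used here.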

Additional observations from a re-analysis of the deposited data

Results flagged for a closer look

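In 3 of 72 sets of 6 libraries, 1 for each tested member and group, the highest or lowest library lay far from the rest; chance flags about 1 in 20 sets. The gap to the nearest library was 0.759 of the group's range for *hoxc13.S* in rctrl replicate 2 at 7 dpw (0.919 CPM, next 0.445 CPM). It was 0.799 for *hoxa2.L* in rctrl replicate 3 at 14 dpw (4.50 CPM, next 6.21 CPM) and 0.689 for *hoxa3.S* in rctrl replicate 4 at 7 dpw (13.3 CPM, next 14.5 CPM). Leaving these libraries out one at a time changed the direction of no call among the tested members.

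Among the tested members, the effect of a cytokine differed between 14 and 7 dpw by the test of the difference itself in 7 cases. For rIL34 the effect at 14 dpw less that at 7 dpw was -1.96 for *hoxb7.L*, -1.65 for *hoxa2.L*, -0.99 for *hoxa3.L* and -0.87 for *hoxa3.S*. For rCSF1 it was -0.92 for *hoxa2.L*, -0.72 for *hoxa3.S* and 1.56 for *hoxd3.S*. All are on the log2 scale, and the 3 for rCSF1 lost their calls without the rCSF1 libraries that stood apart. Without replicates 2 and 5 of 7 dpw they were at -0.95, -0.55 and 1.15, and without replicates 1, 2 and 6 of 14 dpw at -0.93, -0.64 and 1.49, for *hoxa2.L*, *hoxa3.S* and *hoxd3.S* in that order.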

How the results depend on the processing

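The 44 calls among the tested Hox members kept their direction in all 986 alternatives run, and 833 of these stayed past the threshold. Results of low members, of the models named LOC and of members not called were not followed in this way. The counts of called members moved more. With a filter at 5 CPM, which left 6 Hox genes to test, the count was 4 of 7 for rIL34 and 2 of 5 for rCSF1 against rIL34 at 7 dpw, 0 of 2 for rCSF1 at 14 dpw and 3 of 6 for 14 against 7 dpw after rctrl; *hoxa3.L* after rIL34 (adjusted p = 0.066) and both *hoxa3* rows after rCSF1 at 14 dpw (adjusted p = 0.089 and 0.092) were still tested and lost their calls. In models of the compared groups only it was 4 of 7 for rIL34 at 7 dpw, 0 of 5 for rCSF1 against rIL34 at 7 dpw, 0 of 2 for rCSF1 at 14 dpw and 1 of 3 for the rCSF1 effect at 14 less 7 dpw. Voom gave 1 for rCSF1 against rIL34 at 7 dpw, and 8 in place of 4 for the rIL34 effect difference, where 2 members were called higher. RLE gave 1 for rCSF1 at 14 dpw. With L and S copies summed, which leaves fewer genes, the counts were 1 for rCSF1 at 14 dpw, and 5 and 2 for 14 against 7 dpw after rCSF1 and rIL34. Without rCSF1 replicates 2 and 5 of 7 dpw the count was 1 for rCSF1 against rIL34 and 0 for the rCSF1 effect difference, and without rCSF1 replicates 1, 2 and 6 of 14 dpw it was 0 for rCSF1 at 14 dpw and 0 for that difference. For other shifts the cause was not tested.

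Leaving out 1 library at a time gave 4 to 4 members for rCSF1 and 4 to 8 for rIL34 at 7 dpw, 3 to 5 for rCSF1 against rIL34 at 7 dpw, 0 to 2 for rCSF1 at 14 dpw, 9 to 9, 2 to 6 and 5 to 6 for 14 against 7 dpw after rCSF1, rIL34 and rctrl, 1 to 4 for the rCSF1 effect difference and 3 to 6 for that of rIL34. The other comparisons at 14 dpw stayed at 0.

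Samples with the same replicate number did not deviate together more than others: 14 of 90 pairs had a correlation over 0.1, against 90 of 450 pairs with other replicate numbers. The replicate block gave 0 of 2 members for rCSF1 at 14 dpw, and moved no other count by over 1.5 times. It lost *hoxb7.L* (adjusted p = 0.055) and *hoxd4.L* (adjusted p = 0.052) in rIL34 against rctrl at 7 dpw, *hoxd3.S* in 14 against 7 dpw after rIL34 (adjusted p = 0.055) and *hoxb7.L* in the rIL34 effect difference (adjusted p = 0.05003). Dividing levels by exon length was not run, since no exon lengths were at hand. Depth limits the low members: the floor of 3 counts was 0.134 CPM in rCSF1 replicate 3 at 7 dpw. HoxC and posterior HoxA and HoxD genes could therefore differ without being called.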
